A study of Mus musculus with 4 samples.

Results

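Mature granule neurons of the mouse cerebellum were selected from droplet-based single-cell RNA sequencing by the unique molecular identifiers (UMIs, individually tagged transcripts) of 18 genes. A cell was kept when it had a UMI of at least 2 of the 6 markers Gabra6, Grin2c, Cbln3, Calb2, Grin2a and Nebl, a UMI of at least 1 of the 3 lineage genes Neurod1, Neurod2 and Rbfox3, and 0 UMIs of the 9 genes Nhlh1, Cntn2, Atoh1, Mki67, Top2a, Gad1, Gad2, Pax2 and Eomes. These rules kept 209 of 42576 cells, or 0.491%. Because measured values chose the cells, their levels of the 18 genes are given only as descriptions.

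The groups were Eftud2 cKO and WT mice at postnatal day 10 (P10) and at postnatal day 14 (P14), with 1 library in each group. Eftud2 is a GTP-hydrolysing core protein of the spliceosome's U5 particle, and the title of the series places its deficiency in Purkinje cells. The labels name no Cre line, promoter, sex or number of pooled animals, so granule neurons of cKO mice cannot be said to carry or to lack the deletion. The whole cerebellum was freed of meninges, cut and digested with trypsin before encapsulation. Each group was 1 library, and no test between groups was run. A planned fit of genotype and age over all 4 libraries required at least 20 members in each, and P10 WT had 15. Differences between mice, between dissociations and between genotypes cannot be told apart. Every interval below covers counting error only.

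The matrices held 6719 barcodes and 92315263 UMIs for P10 cKO, 16691 barcodes and 158017834 UMIs for P10 WT, 7281 barcodes and 91091692 UMIs for P14 cKO, and 15837 barcodes and 145731767 UMIs for P14 WT. Cells with at least 500 genes and at most 20% mitochondrial UMIs numbered 6593 in P10 cKO, 14280 in P10 WT, 6308 in P14 cKO and 15395 in P14 WT. Between 7 and 76 filtered barcodes were shared by any pair of libraries. No member barcode was a member in another library.

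Granule neurons are small glutamatergic cells and the most numerous neurons of the brain. Their precursors divide in the external granular layer of the postnatal cerebellum under Sonic hedgehog from Purkinje cells, leave the cell cycle, and migrate through the molecular layer to the internal granular layer. There they receive mossy fibre input and inhibition from Golgi cells, and their parallel fibres synapse on Purkinje cells. Maturation is known for a switch of receptor subunits, in which Grin2b gives way to Grin2a and Grin2c in NMDA receptors and the cerebellar GABA-A subunits Gabra6 and Gabrd appear. The contactin Cntn2 (TAG-1) is known as a marker of granule neurons that extend axons and begin to migrate.

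Of the 6 markers, Gabra6 encodes a GABA-A receptor subunit largely restricted to cerebellar granule neurons, Grin2c and Grin2a encode NMDA receptor subunits, Cbln3 encodes a granule neuron cerebellin that assembles with Cbln1, and Calb2 encodes the calcium buffer calretinin. Nebl encodes nebulette, an actin-binding protein best known from heart muscle. The promoters of Gabra6, Grin2c and Cbln3, the markers best known as granule neuron genes, are printed 5′ to 3′ from 250 bases before to 50 bases after the start, from RefSeq on GRCm38.p6. NFI proteins and basic helix-loop-helix factors such as Neurod1 are known regulators of granule neurons, so capitals mark matches on either strand to the NFI element TTGGC, whose reverse complement reads GCCAA, and to the E-box CANNTG.
Gabra6: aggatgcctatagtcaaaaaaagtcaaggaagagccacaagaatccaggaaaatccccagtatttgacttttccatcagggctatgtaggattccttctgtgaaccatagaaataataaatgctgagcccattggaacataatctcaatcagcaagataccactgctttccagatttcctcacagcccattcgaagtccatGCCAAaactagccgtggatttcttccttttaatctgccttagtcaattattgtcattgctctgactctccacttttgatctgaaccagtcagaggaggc
Grin2c: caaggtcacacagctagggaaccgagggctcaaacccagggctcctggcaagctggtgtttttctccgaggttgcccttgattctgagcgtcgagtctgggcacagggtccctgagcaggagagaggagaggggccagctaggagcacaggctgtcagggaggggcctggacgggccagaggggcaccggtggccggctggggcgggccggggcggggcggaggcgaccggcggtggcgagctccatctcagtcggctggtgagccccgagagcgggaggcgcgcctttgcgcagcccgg
Cbln3: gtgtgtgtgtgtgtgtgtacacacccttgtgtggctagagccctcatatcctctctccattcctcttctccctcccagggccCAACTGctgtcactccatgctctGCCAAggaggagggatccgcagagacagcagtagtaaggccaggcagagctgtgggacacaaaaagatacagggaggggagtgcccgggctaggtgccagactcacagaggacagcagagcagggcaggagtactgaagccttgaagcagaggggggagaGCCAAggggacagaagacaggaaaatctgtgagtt
The windows lie on the minus strand at chr11:42321023-42321322 for Gabra6, chr11:115267194-115267493 for Grin2c and chr14:55884207-55884506 for Cbln3. Gabra6 held 1 NFI element, at -49 from the start, and Cbln3 held 2, at -145 and at 16. Cbln3 also held 1 E-box, at -168, and the Grin2c window held neither motif. Among 32851 promoters of the same length from 27025 genes, 46.7% held the NFI element and 72.3% held an E-box, so both are common in windows of this size. A match is a description of letters and no evidence of binding, and these letters were not tested against the expression values.

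Of the 9 excluded genes, Cntn2 removed the most cells. Cells with at least 2 markers and a lineage gene numbered 218 in P10 cKO, 68 in P10 WT, 934 in P14 cKO and 268 in P14 WT, 1488 in all. Cntn2 had a UMI in 1164 of them, which was 67.9% in P10 cKO, 52.9% in P10 WT, 85.8% in P14 cKO and 66.8% in P14 WT. Cntn2 alone removed 56 cells in P10 cKO, 8 in P10 WT, 458 in P14 cKO and 89 in P14 WT. In P10 WT the proliferation genes Mki67 and Top2a were next, in 45.6% and 44.1% of these cells. In the other libraries it was Nhlh1, a transcription factor of newly formed granule neurons, with 33.5% in P10 cKO, 24.4% in P14 cKO and 22.8% in P14 WT, and it was the only excluded gene in at most 5 cells of a library.

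UMIs of the gate genes also occurred in cells of another type. Among microglia-like cells, defined by at least 6 of 12 microglial markers, a lineage gene had a UMI in 57.0% of 653 cells of P14 cKO and in 40.3% of 847 cells of P14 WT, at median depths of 15675 UMIs in P14 cKO and 8857 UMIs in P14 WT. Cntn2 had a UMI in 25.4% of them in P14 cKO and in 20.3% in P14 WT, and at least 2 markers were present in 6.28% in P14 cKO and in 0.472% in P14 WT. Nebl had a UMI in 11.8% of these microglia-like cells in P14 cKO and in 3.90% in P14 WT, while Gabra6 had one in 2.14% in P14 cKO and in 0 of 847 in P14 WT, which allows a share of up to 0.354%. Of the 6 markers Nebl was the one most often present in these cells of both P14 libraries. At P10, at least 2 markers were present in 1.51% of 331 microglia-like cells of cKO and in 0.238% of 2939 of WT.

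The selection yielded 49 members in P10 cKO, 15 in P10 WT, 86 in P14 cKO and 59 in P14 WT. They made up 0.743% (95% exact binomial interval 0.550 to 0.981) of the cells of P10 cKO and 0.105% (0.0588 to 0.173) of those of P10 WT. At P14 the shares were 1.36% (1.09 to 1.68) in cKO and 0.383% (0.292 to 0.494) in WT, a ratio of 3.56. The members had fewer UMIs than the library as a whole in cKO, with medians of 3161 against 11008 at P10 and 5221.5 against 12347 at P14, and more in WT, with medians of 10664 against 8490 at P10 and 12526 against 7838 at P14.

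The label held for only some of the 209 cells. Lists of marker genes of 11 non-neuronal classes were summed in each member, and a member with at least 0.5% of its UMIs from any of these lists is called non-neuronal here. This limit was chosen after the values were seen. It left 134 cells, called neuronal members below, which were 43 of 49 in P10 cKO, 1 of 15 in P10 WT, 67 of 86 in P14 cKO and 23 of 59 in P14 WT. Among the non-neuronal members, astroglial genes led in 26 of 36 cells in P14 WT, in 8 of 19 in P14 cKO, in 9 of 14 in P10 WT and in 2 of 6 in P10 cKO. Ependymal genes led in 6 further cells of P14 WT, and fibroblast and oligodendrocyte genes in 4 each of P14 cKO. Members between 0.25% and 1%, near the limit, numbered 2 in P10 cKO, 3 in P10 WT, 6 in P14 cKO and 10 in P14 WT. The name neuronal rests on this limit alone. Among the P14 WT cells so named, 1 held 414 UMIs of the neutrophil gene S100a8. Another gene, the ependymal Tmem212, had 35 UMIs in 1 cell, and Gpr17 of oligodendrocyte precursors had 43 UMIs in 1 cell. Not all 23 neuronal members of P14 WT can therefore be taken as granule neurons.

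A list of 22 mature granule neuron genes outside the gate had higher medians in neuronal members than in non-neuronal members of each library. The ranges overlapped except in P10 WT, where only 1 cell was neuronal. This list holds among others Gabrd, Slc17a7 (the vesicular glutamate transporter of parallel fibres), Etv1, Fat2, Cadps2, Cbln1, Snap25 and Fgf14. Neuronal members had a median of 30070 CPM (UMIs of the list per 1000000 UMIs) in P10 cKO, with a range of 4671 to 65337. The median was 20823 CPM in P14 cKO (3795 to 84293) and 10047 CPM in P14 WT (913 to 39976), and the 1 cell of P10 WT had 7800 CPM. Non-neuronal members had medians of 719 CPM in P10 cKO (69.8 to 7050), 307 CPM in P10 WT (0 to 557), 1743 CPM in P14 cKO (0 to 42266) and 1139 CPM in P14 WT (0 to 11894). Non-neuronal members were also the deeper cells, with medians of 24163.5, 10984, 18652 and 15877.5 UMIs in P10 cKO, P10 WT, P14 cKO and P14 WT, against 2795, 3077, 4697 and 5302 UMIs for neuronal members of the same libraries. Markers of other neurons were low in neuronal members. The rules had already removed every cell with a UMI of Gad1, Gad2, Pax2 or Eomes. Low levels of interneuron and unipolar brush cell markers were thus set in part by the rules and carry no test. The Purkinje genes Pcp2, Ppp1r17, Skor2 and Shh had 0 UMIs in every library, as did the unipolar brush cell gene Lmx1a, and 10 markers of GABAergic interneurons summed to 128 CPM in P10 cKO, 119 CPM in P14 cKO and 282 CPM in P14 WT. Microglial markers summed to 18.3 CPM in P10 cKO, 171 CPM in P14 cKO and 40.3 CPM in P14 WT.

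**Figure D1:**
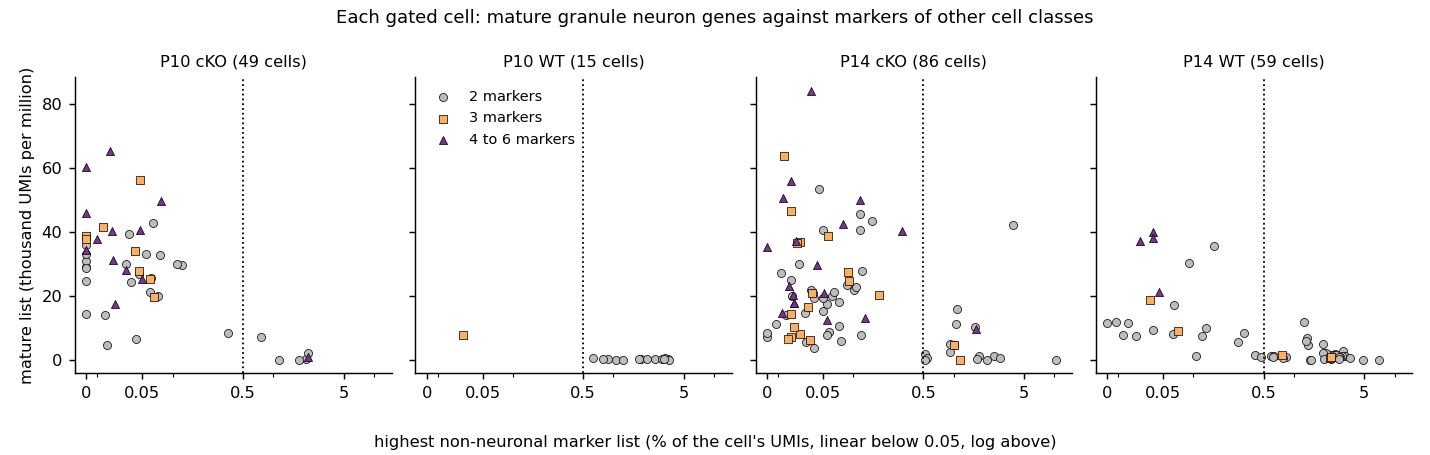
Level of the 22 mature granule neuron genes outside the gate (CPM, linear axis) against the largest share of UMIs from any non-neuronal list (percent, axis linear near 0 and log above), 1 point per member and 1 panel per library. The members to the right of the 0.5% line lie mostly low on the vertical axis, and 14 of the 15 P10 WT members and 36 of the 59 P14 WT members are among them.

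As a share of all cells, neuronal members made up 0.652% in P10 cKO, 0.0070% in P10 WT, 1.06% in P14 cKO and 0.149% in P14 WT. The P14 ratio of cKO to WT was thus 7.11, against 3.56 for all members. Leaving the non-neuronal members out lowered the WT shares most. The comparison at P10 rests on 43 cells in cKO and 1 cell in WT. When every cell was thinned to 3000 UMIs before the rules were applied, the shares of members were 0.375% in P10 cKO, 0.0333% in P10 WT, 2.95% in P14 cKO and 0.216% in P14 WT. Thinning left out 464 cells in P10 cKO, 2264 in P10 WT, 915 in P14 cKO and 1968 in P14 WT. Under each of these definitions the share was higher in cKO than in WT at both ages. Microglia-like cells with at least 2 markers were also more frequent in cKO. They were 6.28% in cKO and 0.472% in WT at P14, and 1.51% in cKO and 0.238% in WT at P10. The part of such background UMIs in the shares was not tested. The P10 libraries were written by different Cell Ranger versions, 7.0.1 for cKO and 5.0.0 for WT. Of the genes the gate reads, Grin2a, Nebl and Rbfox3 have 410, 372 and 416 kb of introns, and whether intronic reads were counted is not known. The part of the version in the P10 shares was not tested. Shares of cells depend on which cells survive dissociation and on what else was captured, and their part in the difference was not tested.

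The 6 markers were unevenly distributed over the members, and several combinations met the rule of 2 markers. Gabra6 (chr11:42306437-42321072) had 66 UMIs in members of P10 cKO, 5 in P10 WT, 96 in P14 cKO and 30 in P14 WT, or 203, 27.0, 138 and 38.0 CPM. Summed over all members, Gabra6 was higher in cKO than in WT at both ages. Of the WT members, however, 14 of 15 at P10 and 36 of 59 at P14 were non-neuronal. Gabra6 was present in 24 of 43 neuronal members of P10 cKO and in 26 of 67 of P14 cKO, at 402 and 237 CPM. In P14 WT it was present in 5 of 23, at 188 CPM, and 60.7% of these UMIs came from 1 cell. At P14 the counting intervals of neuronal members, 190 to 293 CPM in cKO and 125 to 272 CPM in WT, overlapped. The 1 neuronal member of P10 WT had 3 UMIs, or 975 CPM. Gabra6 also helped to choose the cells, so no difference between genotypes is drawn from it.

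Grin2c (chr11:115249169-115267243) had 39 UMIs in members of P10 cKO, 3 in P10 WT, 26 in P14 cKO and 20 in P14 WT, or 120, 16.2, 37.5 and 25.3 CPM. Grin2a (chr16:9567898-9995560), the subunit that largely succeeds Grin2b, had 160, 1, 174 and 45 UMIs in P10 cKO, P10 WT, P14 cKO and P14 WT, or 492, 5.41, 251 and 57.0 CPM. Among neuronal members Grin2a stood at 951 CPM in P10 cKO, 447 CPM in P14 cKO and 168 CPM in P14 WT. Both subunits of the mature NMDA receptor were highest in P10 cKO.

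Cbln3 (chr14:55878913-55884392) was sparse, with 16 UMIs in members of P10 cKO, 5 in P10 WT, 36 in P14 cKO and 12 in P14 WT. Its level in neuronal members, 85.4 CPM in P10 cKO, 74.6 CPM in P14 cKO and 60.5 CPM in P14 WT, rested on 7, 11 and 3 cells with a UMI. Calb2 (chr8:110137502-110168210) had 19 UMIs in P10 cKO, 44 in P10 WT, 154 in P14 cKO and 70 in P14 WT. Nebl (chr2:17343909-17731464) had 140, 39, 575 and 502 UMIs in P10 cKO, P10 WT, P14 cKO and P14 WT. Neuronal members held Nebl at 305 CPM in P10 cKO, 1232 CPM in P14 cKO and 363 CPM in P14 WT, and only 54 of its 502 UMIs in P14 WT members were in neuronal ones. All 6 genes lie on the minus strand, and coordinates are those of GENCODE vM21 on mm10.

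**Figure D2:**
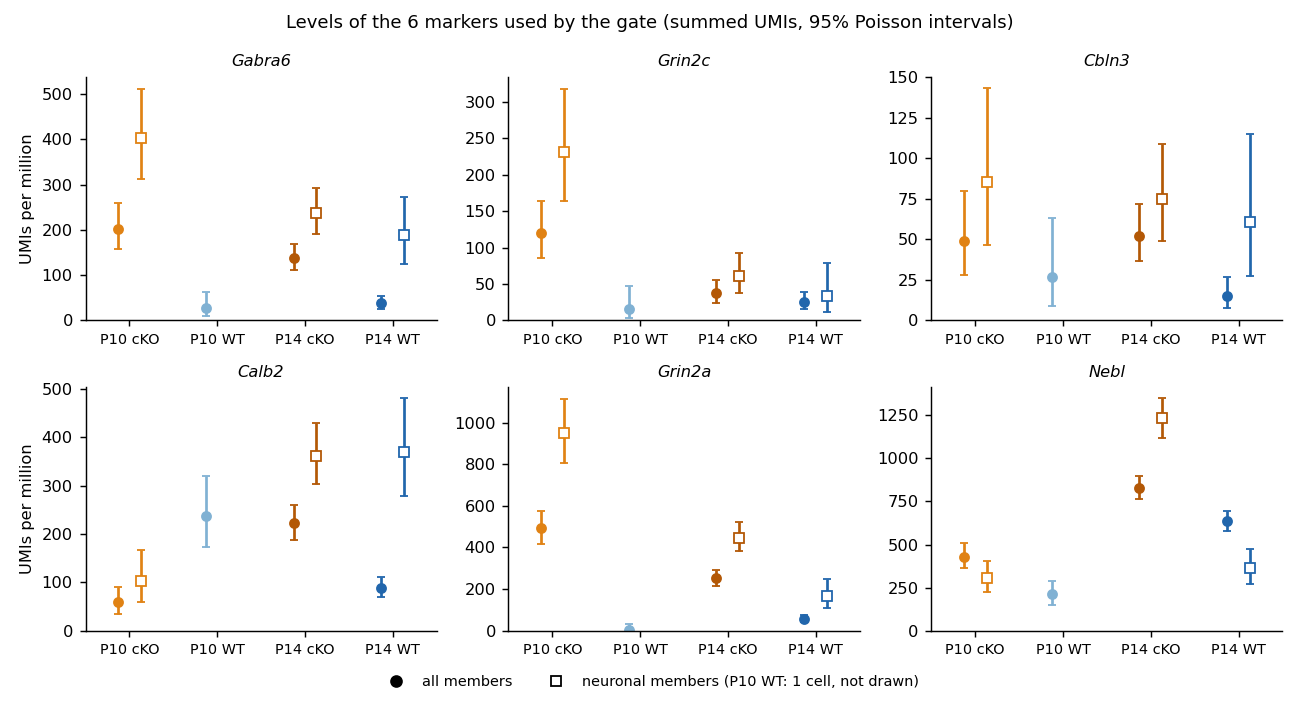
Level of each of the 6 markers (CPM) in all members and in neuronal members of each library, with 95% counting intervals. The 1 neuronal member of P10 WT is not drawn. In neuronal members Gabra6 reads 402 CPM in P10 cKO, 237 in P14 cKO and 188 in P14 WT, and Nebl reads 305, 1232 and 363 CPM.

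The combinations differed between libraries. In P14 cKO, 14 neuronal members were chosen by Grin2a with Nebl, 11 by Calb2 with Nebl, and 10 by all 3 of these. In P14 WT, 9 were chosen by Calb2 with Nebl and 5 by Grin2a with Nebl. In P10 cKO the most frequent pair was Grin2c with Grin2a, in 7 cells, followed by Grin2a with Nebl and by Gabra6 with Grin2c, Grin2a and Nebl, in 6 cells each. All 6 markers were present in 2 cells, both of P14 cKO.

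The number of markers tracked the level of genes the rules did not use. In neuronal cells that met the other rules, the mature list stood at 2009 CPM with 0 markers, 9649 CPM with 1, 22534 CPM with 2, 33650 CPM with 3 and 41998 CPM with at least 4 in P10 cKO. The same steps in P14 cKO were 2261, 10207, 19956, 21726 and 32965 CPM. In P14 WT they were 2586, 5851, 6031, 12226 and 36584 CPM. In these summed values, P14 WT cells with 1 marker, just outside the rule, lay close to cells with 2, just inside it. In both cKO libraries cells with 1 marker lay well below those with 2. The median cell stood at 7151 CPM with 1 marker and 8386 CPM with 2 in P14 WT. It stood at 14084.5 and 19683 CPM in P14 cKO, and at 16593 and 28871 CPM in P10 cKO. At a limit of 0.25% on non-neuronal markers the summed P14 WT value with 2 markers was 9663 CPM. These values share their cells with the rule and carry no test.

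A list of 19 early granule neuron genes outside the gate, among them Dcx, Tubb3, Sox11, Sox4 and Grin2b, ran the other way. It stood at 10534 CPM with 0 markers and 2878 CPM with at least 4 in P10 cKO, at 11223 and 3864 CPM in P14 cKO, and at 11552 and 3107 CPM in P14 WT. In between, P14 WT did not descend steadily, with 5562 CPM at 2 markers and 9442 CPM at 3. Only 2 neuronal members of P14 WT had exactly 3 markers and 4 had more, against 16 and 17 in P14 cKO and 8 and 12 in P10 cKO.

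**Figure D3:**
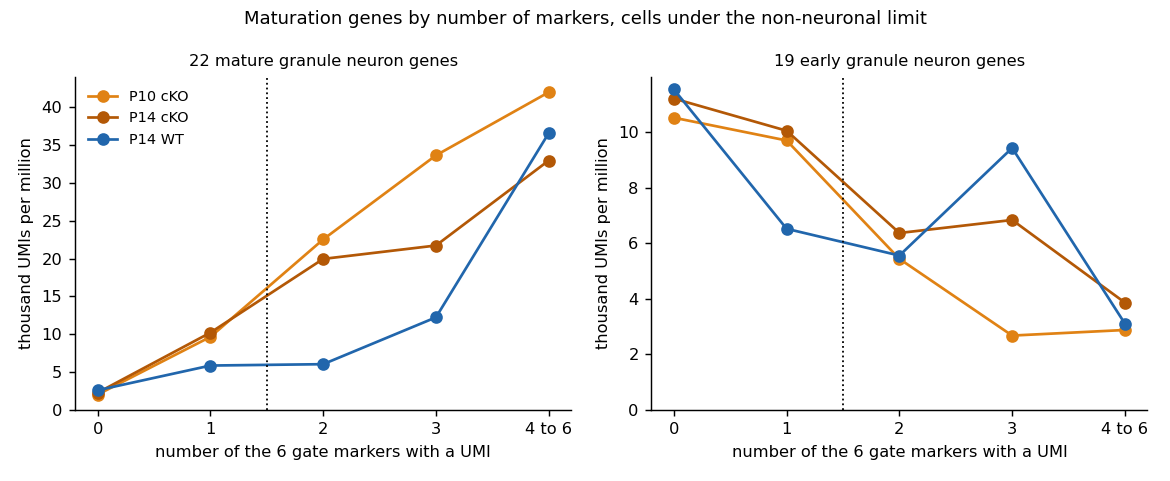
Summed levels of the mature and early granule neuron lists (CPM) in neuronal cells by number of markers, 1 line each for P10 cKO, P14 cKO and P14 WT. P10 WT is not drawn. The mature list runs up to 41998 CPM in P10 cKO, 32965 CPM in P14 cKO and 36584 CPM in P14 WT at 4 or more markers, and the early list runs down to 2878, 3864 and 3107 CPM.

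For P14, cKO was set against WT in 3 sets of cells, which were all members (86 against 59), neuronal members (67 against 23), and neuronal cells selected by the same rules without the exclusion of Cntn2 (494 against 100). The last set was chosen after the data were seen and is called the Cntn2-inclusive cells. UMIs were summed per library, and genes with at least 20 UMIs over both libraries were compared by the log2 ratio of their CPM. Among all members 13.1% of 9647 genes were at least 2-fold higher in cKO and 15.6% at least 2-fold lower. Among neuronal members these shares were 11.1% and 12.5% of 4909 genes. With TMM factors in place of totals, neuronal members had 804 genes at least 2-fold higher and 408 lower, against 543 and 614 with totals. Among Cntn2-inclusive cells the shares were 4.08% and 6.34% of 11377 genes. Among neuronal members the median log2 ratio was -0.49 for genes with under 10 kb of summed introns. It was 0.44 for genes with at least 100 kb. The list medians below were not adjusted for intron length, and its part in them was not tested.

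The mature granule neuron genes were higher in cKO among all members, less so among neuronal members, and barely so among Cntn2-inclusive cells. The list stood at 14308 CPM in cKO and 3250 CPM in WT in all members, at 24335 CPM in cKO and 10734 CPM in WT in neuronal members, and at 15085 CPM in cKO and 12140 CPM in WT in Cntn2-inclusive cells. Its median log2 ratio was 2.24, 0.95 and 0.15 in these 3 sets, beside medians over all genes of -0.03, -0.01 and -0.05. All 22 genes were at least 2-fold higher among all members, 11 among neuronal members and 1 among Cntn2-inclusive cells. The neuronal values of WT rested largely on few cells. In P14 WT, 3 neuronal members with 913, 1242 and 1483 CPM of the mature list lay below the lowest cKO neuronal member, at 3795 CPM, and held 38.2% of the 148874 UMIs of WT neuronal members. At a limit of 0.25% in place of 0.5% on non-neuronal markers, which left out 2 of these 3 cells and kept 66 cells of cKO and 19 of WT, the list stood at 23936 CPM in cKO and 16541 CPM in WT. Its median log2 ratio was then 0.24, with 13 genes above 0, of which 4 were at least 2-fold higher, and 9 below 0. Astroglial markers moved the other way among all members, with 2930 CPM in cKO and 13879 CPM in WT, all 13 of them at least 2-fold lower in cKO. Among neuronal members astroglial markers stood at 124 CPM in cKO and 967 CPM in WT, and among Cntn2-inclusive cells at 155 and 414 CPM. The part of these admixed cells in the genotype difference was not tested beyond leaving them out.

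Potassium channels set the excitability of granule neurons. Kcnd2, the A-type channel of granule neurons, had 4659 CPM in neuronal members of P14 cKO and 2008 CPM in those of P14 WT, a log2 ratio of 1.21 (95% counting interval 1.04 to 1.40). Its partner Kcnip4, a channel-interacting protein, had 2596 and 1034 CPM in cKO and WT, a log2 ratio of 1.32 (1.08 to 1.58). Among Cntn2-inclusive cells the log2 ratios of Kcnd2 and Kcnip4 were 0.34 and 0.05. Of the potassium channel list 18 of 29 genes tested were at least 2-fold higher and 6 lower among all members, 7 of 23 higher and 0 lower among neuronal members, and 0 of 27 higher and 2 lower among Cntn2-inclusive cells. Their median log2 ratios were 1.59, 0.81 and 0.05.

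Sodium and calcium channel genes had medians of 1.69, 1.00 and 0.11 in the 3 sets, with 15 of 21, 9 of 18 and 2 of 25 genes at least 2-fold higher. Fgf14, which binds voltage-gated sodium channels at the axon initial segment, had 5520 CPM in neuronal members of cKO and 2324 CPM in those of WT, a log2 ratio of 1.25 (1.08 to 1.42). Its log2 ratio was 0.65 in Cntn2-inclusive cells. Cacna1a, the P/Q-type calcium channel that triggers release from parallel fibres, had 1392 CPM in cKO and 618 CPM in WT, a log2 ratio of 1.16 (0.85 to 1.51), and a log2 ratio of 0.21 in Cntn2-inclusive cells.

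Receptor genes for the mossy fibre and Golgi cell inputs also had their smallest medians in Cntn2-inclusive cells. GABA-A receptor subunits outside the gate had medians of 0.91, 0.86 and 0.21. Among all members 5 of 10 were at least 2-fold higher and 4 lower, and 3 of 7 were at least 2-fold higher among neuronal members against 1 of 9 among Cntn2-inclusive cells. Gabrb2, a beta subunit that assembles with Gabra6, had 279 CPM in neuronal members of cKO and 80.6 CPM in those of WT, with a log2 ratio of 1.74 (0.92 to 2.79) there and 0.21 in Cntn2-inclusive cells. Of the NMDA receptor subunits, the obligatory subunit Grin1 had 331 CPM in cKO and 134 CPM in WT (log2 ratio 1.27, 0.61 to 2.06, and 0.53 in Cntn2-inclusive cells). Grin2b, the subunit of young granule neurons, had 842 CPM in cKO and 423 CPM in WT (log2 ratio 0.98, 0.60 to 1.41, and 0.29 in Cntn2-inclusive cells).

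Among AMPA and kainate receptors, the kainate subunit Grik2 had 5360 CPM in neuronal members of cKO and 2613 CPM in those of WT, a log2 ratio of 1.04 (0.88 to 1.20). The AMPA subunit Gria2 had 972 CPM in cKO and 605 CPM in WT (log2 ratio 0.68, 0.35 to 1.04), and Gria4 had 1751 CPM in cKO and 880 CPM in WT (log2 ratio 0.99, 0.72 to 1.28). In Cntn2-inclusive cells the log2 ratios of Grik2, Gria2 and Gria4 were 0.20, 0.37 and 0.04, and 0 of 8 genes of their list were at least 2-fold higher and 2 lower. Grm4, the presynaptic metabotropic receptor of parallel fibres, had 146 CPM in cKO and 107 CPM in WT, with a log2 ratio of 0.41 (-0.38 to 1.35), an interval that includes 0. Its log2 ratio was 1.93 among all members.

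Genes of synaptic vesicles and release had medians of 1.65, 0.68 and 0.09 in all members, neuronal members and Cntn2-inclusive cells, with 22 of 29, 9 of 28 and 0 of 31 at least 2-fold higher. Rims1, an active zone scaffold, had 1552 CPM in neuronal members of cKO and 752 CPM in those of WT (log2 ratio 1.04, 0.75 to 1.35, and 0.09 in Cntn2-inclusive cells). Syt1, the calcium sensor of release, had 1447 CPM in cKO and 611 CPM in WT (log2 ratio 1.24, 0.92 to 1.58, and 0.14 in Cntn2-inclusive cells). Synapse organisers had medians of 1.10, 0.58 and 0.23, and 6 of 18 were at least 2-fold higher and 1 lower among neuronal members. Cntnap2, a neurexin-family adhesion protein, had 933 UMIs in neuronal members of cKO and 113 in those of WT, or 2577 and 759 CPM, a log2 ratio of 1.76 (1.48 to 2.06). Its log2 ratio was 0.75 in Cntn2-inclusive cells. Axon guidance and adhesion genes had medians of 1.64, 0.97 and 0.10 in the 3 sets, with 7 of 18 at least 2-fold higher among neuronal members and 0 of 27 among Cntn2-inclusive cells.

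Transcription factors of the lineage had smaller medians than the channel and release genes. Their median was 0.54 among all members, 0.28 among neuronal members and -0.00 among Cntn2-inclusive cells, with 9 of 25, 1 of 22 and 0 of 25 at least 2-fold higher. Nfib and Nfia, NFI factors of granule neuron maturation, had 2455 and 1461 CPM in neuronal members of cKO, and 1679 and 1189 CPM in those of WT. Rora, best known for its role in Purkinje cells, had 1778 CPM in cKO and 893 CPM in WT (log2 ratio 0.99, 0.72 to 1.27, and 0.47 in Cntn2-inclusive cells). The early granule neuron list had medians of 0.74, 0.11 and 0.11, and among neuronal members 1 of 17 genes was at least 2-fold higher and 1 lower.

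The limit on non-neuronal markers also set the size of the single-gene ratios. Of 17 genes described for P14, 11 were at least 2-fold higher in cKO among neuronal members, and 3 of these 11 were so at the limit of 0.25%, where the log2 ratios of the 11 lay between 0.44 and 1.19. The 3 were Car10 at 1.19, Cntnap2 at 1.12 and Gabrb2 at 1.09. Fgf14 stood at 0.61, Kcnd2 at 0.55, Kcnip4 at 0.44 and Grin1 at 0.57 (-0.11 to 1.38), and Grm4 turned to -0.37 (-1.17 to 0.57). Over all genes 9.96% of 4267 were at least 2-fold higher at that limit and 7.90% at least 2-fold lower.

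**Figure D4:**
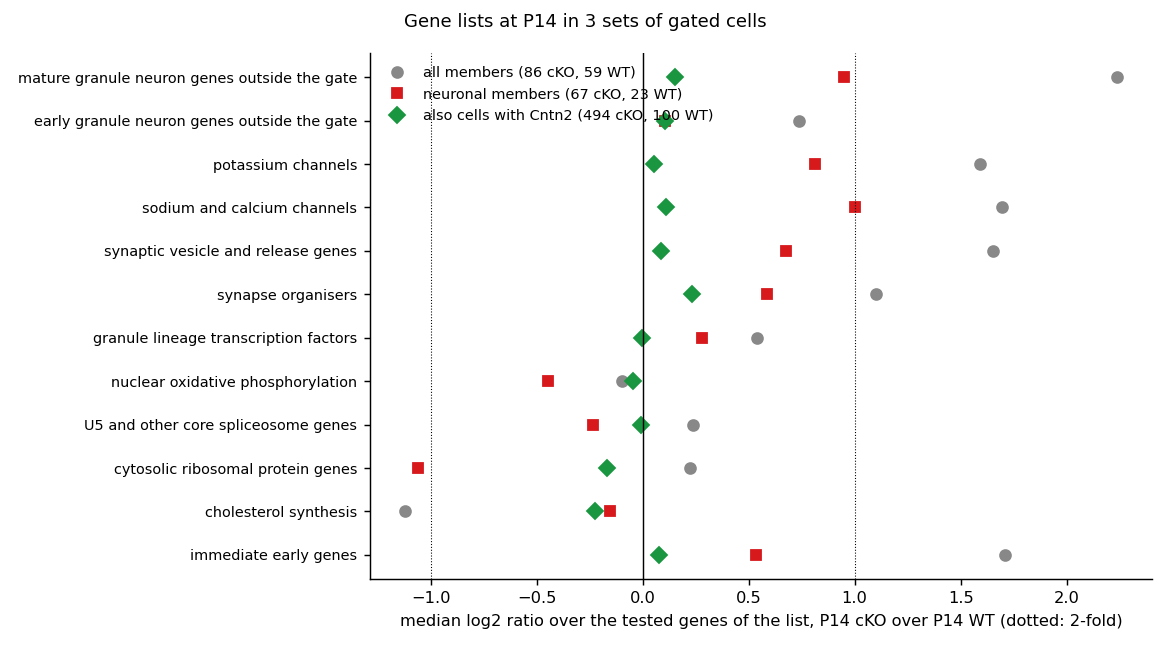
Median log2 ratio of P14 cKO over P14 WT for lists of genes in all members, neuronal members and Cntn2-inclusive cells. The mature list falls at 2.24, 0.95 and 0.15 in the 3 sets, and the early list at 0.74, 0.11 and 0.11.

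Ranked by size, the P14 differences among all members were led by genes of other cell types. Ptgds, a prostaglandin synthase abundant in meningeal cells and oligodendrocytes, had 2731 UMIs (3940 CPM) in members of cKO and 45 UMIs (57.0 CPM) in those of WT, but 5 and 3 UMIs in neuronal members of cKO and WT. Tmem212, a gene of the ependymal list, had 1 UMI in members of cKO and 340 UMIs in those of WT, and 36 of the WT UMIs were in neuronal members, 35 of them in 1 cell. The genes chosen by the size of the P14 difference among neuronal members included Sidt1, Cntnap2, Car10, Ralyl, Zfp385b and Olfm3 on the high side. Sidt1 is a transmembrane protein related to a nematode RNA channel. It had 47 UMIs in 20 of 67 cells of cKO and 0 UMIs in 23 cells of WT. Its cKO level was 6.44-fold above a floor of 3 counts over the WT members. The lower bound of the counting interval of its log2 ratio was 2.33, and 1.26 at the limit of 0.25%. Car10, a carbonic anhydrase-related protein that binds neurexins, had 2198 CPM in cKO and 658 CPM in WT (log2 ratio 1.73, 1.44 to 2.06, and 0.38 in Cntn2-inclusive cells). The low side was led by genes of neutrophils. S100a8 had 1 UMI in cKO and 414 in WT, all 414 in 1 cell, and S100a9 had 4 UMIs in cKO and 613 in WT, of which 612 were in 1 cell. Mgp had 1 UMI in cKO and 145 in WT, with 144 in 1 cell. These differences therefore each rest on 1 WT member.

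The number of markers also differed between the genotypes, and the ratios depended on it. Among neuronal members with exactly 2 markers, 34 of cKO and 17 of WT at P14, Fgf14 had 4457 CPM in cKO and 1223 CPM in WT. Among those with at least 3 markers, 33 of cKO and 6 of WT, Fgf14 had 6256 CPM in cKO and 6780 CPM in WT. Kcnd2 had 4228 CPM in cKO and 1139 CPM in WT with 2 markers, and 4957 and 5525 CPM with at least 3. Kcnip4 had 918 and 226 CPM in cKO and WT with 2 markers, and 3756 and 4305 CPM with at least 3. The 3 WT members with the lowest mature list all had 2 markers and held 47.7% of the 119374 UMIs of these 17 cells. At the limit of 0.25%, with 34 cells of cKO and 13 of WT at 2 markers, Fgf14 had 4457 CPM in cKO and 1869 CPM in WT, Kcnd2 4228 and 1922 CPM, and Kcnip4 918 and 406 CPM. All 3 genes were higher in cKO with 2 markers at both limits, by less at 0.25%. With at least 3 markers, where WT had 6 cells, they read lower in cKO, but their counting intervals overlapped. For Fgf14 these were 5925 to 6600 CPM in cKO and 5873 to 7787 CPM in WT. For Kcnd2 they were 4663 to 5265 CPM in cKO and 4710 to 6442 CPM in WT. For Kcnip4 they were 3501 to 4025 CPM in cKO and 3589 to 5122 CPM in WT.

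The same split gave another result for Kcnq5 and Grin2b. Kcnq5, an M-type potassium channel gene, had 4295 CPM in cKO and 2052 CPM in WT with 2 markers, and 1986 and 576 CPM with at least 3. Grin2b had 1074 and 461 CPM in cKO and WT with 2 markers, and 682 and 271 CPM with at least 3. Both were higher in cKO in both strata, but the 6 WT cells with at least 3 markers held only 17 UMIs of Kcnq5 and 8 of Grin2b. With 2 markers at the limit of 0.25%, Kcnq5 had 4295 CPM in cKO and 2998 CPM in WT. Its intervals, 3968 to 4642 CPM in cKO and 2564 to 3484 CPM in WT, did not overlap. Grin2b had 1074 CPM in cKO and 758 CPM in WT in these cells. Its intervals, 913 to 1254 CPM in cKO and 549 to 1021 CPM in WT, overlapped.

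At P10, cKO and WT members could be compared only as all members, 49 against 15, since 1 WT cell was neuronal. Of 5354 genes, 29.6% were at least 2-fold higher in cKO and 16.3% at least 2-fold lower. The mature list stood at 17371 CPM in cKO and 357 CPM in WT, with a median log2 ratio of 4.70 and 21 of 22 genes at least 2-fold higher, and 9 of the 22 had 0 UMIs in WT. Astroglial markers stood at 3527 CPM in cKO and 15530 CPM in WT, and fibroblast markers at 102 CPM in cKO and 2093 CPM in WT.

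The P10 ratios also followed the summed intron length of the genes. Their median was -0.76 for 1342 genes with under 10 kb of introns, 0.07 for 2737 genes with 10 to 100 kb and 1.99 for 1275 genes with at least 100 kb. The file headers name Cell Ranger 7.0.1 for P10 cKO, 5.0.0 for P10 WT and 7.1.0 for both P14 libraries, and whether intronic reads were counted is not given in the sources used here. At P14 the same medians were -0.13, -0.03 and 0.21 for all members, -0.49, -0.01 and 0.44 for neuronal members and -0.11, -0.03 and 0.00 for Cntn2-inclusive cells. At P10 genotype, cell makeup and software version cannot be told apart.

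Age was compared within cKO, P14 over P10, where neuronal members were most numerous, with 67 and 43 cells. Of 4754 genes, 13.7% were at least 2-fold higher at P14 and 8.33% at least 2-fold lower. For all members these shares were 10.3% and 10.4% of 8054 genes, and for Cntn2-inclusive cells, 494 and 95 cells, they were 11.6% and 9.75% of 11242 genes. The median over all genes was 0.10 for neuronal members, -0.01 for all members and 0.08 for Cntn2-inclusive cells. Summed intron length moved with age as well, with medians in neuronal members of 0.50 for genes with under 10 kb of introns, 0.11 for 10 to 100 kb and -0.23 for at least 100 kb, and in Cntn2-inclusive cells of 0.50, 0.01 and -0.40. The Cell Ranger version (7.1.0 at P14 and 7.0.1 at P10) and the median mitochondrial share of neuronal members (2.93% at P14 and 5.22% at P10) differed too. So did Xist, with 386 UMIs in 62 of 67 neuronal members at P14 and 0 UMIs in 43 at P10, and the labels give no sex. Their part in the age differences was not tested.

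The mature list was lower at P14 than at P10, at 24335 CPM in neuronal members of P14 cKO and 33326 CPM in those of P10 cKO. Its median log2 ratio was -0.51, with 0 genes at least 2-fold higher and 6 of 22 lower. In Cntn2-inclusive cells the median was -0.91 with 10 of 22 lower, and in all members it was -0.32 with 5 lower. Kcnip4 had 2596 CPM at P14 and 5635 CPM at P10, a log2 ratio of -1.12 (-1.25 to -0.99), and -2.15 in Cntn2-inclusive cells. Cacna1a had 1392 CPM at P14 and 3305 CPM at P10 (log2 ratio -1.25, -1.43 to -1.07, and -1.42 in Cntn2-inclusive cells). Grm4 had 146 CPM at P14 and 579 CPM at P10, a log2 ratio of -1.98 (-2.50 to -1.49), and -2.48 in Cntn2-inclusive cells. Gabrb2 had 279 CPM at P14 and 811 CPM at P10 (log2 ratio -1.54, -1.93 to -1.16, and -2.39 in Cntn2-inclusive cells). Each of these 4 genes was lower at P14 in both sets.

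Early genes were higher at P14. The early list stood at 5769 CPM in neuronal members of P14 cKO and 3756 CPM in those of P10 cKO, with a median log2 ratio of 0.39 and 5 of 17 genes at least 2-fold higher. In Cntn2-inclusive cells its median was 0.69 with 2 genes at least 2-fold higher and 2 lower. Grin2b had 842 CPM at P14 and 220 CPM at P10, a log2 ratio of 1.92 (1.44 to 2.48), and 0.63 in Cntn2-inclusive cells. Kcnq5 had 2930 CPM at P14 and 549 CPM at P10, a log2 ratio of 2.41 (2.11 to 2.74), and 0.80 in Cntn2-inclusive cells. The shares of members were larger at P14, at 1.36% in P14 cKO and 0.743% in P10 cKO, while the mature list was lower and the early list higher.

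The genes with the largest age differences included several that also differed in Cntn2-inclusive cells. Pcp4, a calmodulin regulator, had 442 CPM in neuronal members of P14 cKO and 42.7 CPM in those of P10 cKO, a log2 ratio of 3.28 (2.30 to 4.71), and 1.14 in Cntn2-inclusive cells. Pcp4 is also abundant in Purkinje cells, and it gave 160 of the 175 UMIs of the 11-gene Purkinje list in these P14 cKO cells, in which Pcp2, Ppp1r17, Skor2, Shh and 4 other genes of that list had 0 UMIs. Mdga2, an adhesion protein that binds neuroligins, had 939 CPM at P14 and 104 CPM at P10 (log2 ratio 3.14, 2.48 to 3.98, and 1.21 in Cntn2-inclusive cells). Dok6, an adaptor of receptor tyrosine kinases, had 956 CPM at P14 and 146 CPM at P10 (log2 ratio 2.68, 2.11 to 3.37, and 0.96 in Cntn2-inclusive cells). Ctsl, a lysosomal protease, had 40 UMIs in 21 of 67 cells at P14 and 0 UMIs in 43 cells at P10. Its P14 level was 6.04-fold above a floor of 3 counts over the P10 members. On the low side Rbfox1, a neuronal splicing regulator, had 3985 CPM at P14 and 10647 CPM at P10 (log2 ratio -1.42, -1.52 to -1.32, and -1.54 in Cntn2-inclusive cells). Rora had 1778 CPM at P14 and 3958 CPM at P10 (log2 ratio -1.15, -1.31 to -0.99, and -1.94 in Cntn2-inclusive cells). Cntn4 had 22.1 CPM at P14 and 250 CPM at P10, a log2 ratio of -3.43 (-4.80 to -2.39), but 23 of its 41 P10 UMIs were in 1 cell.

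**Figure D5:**
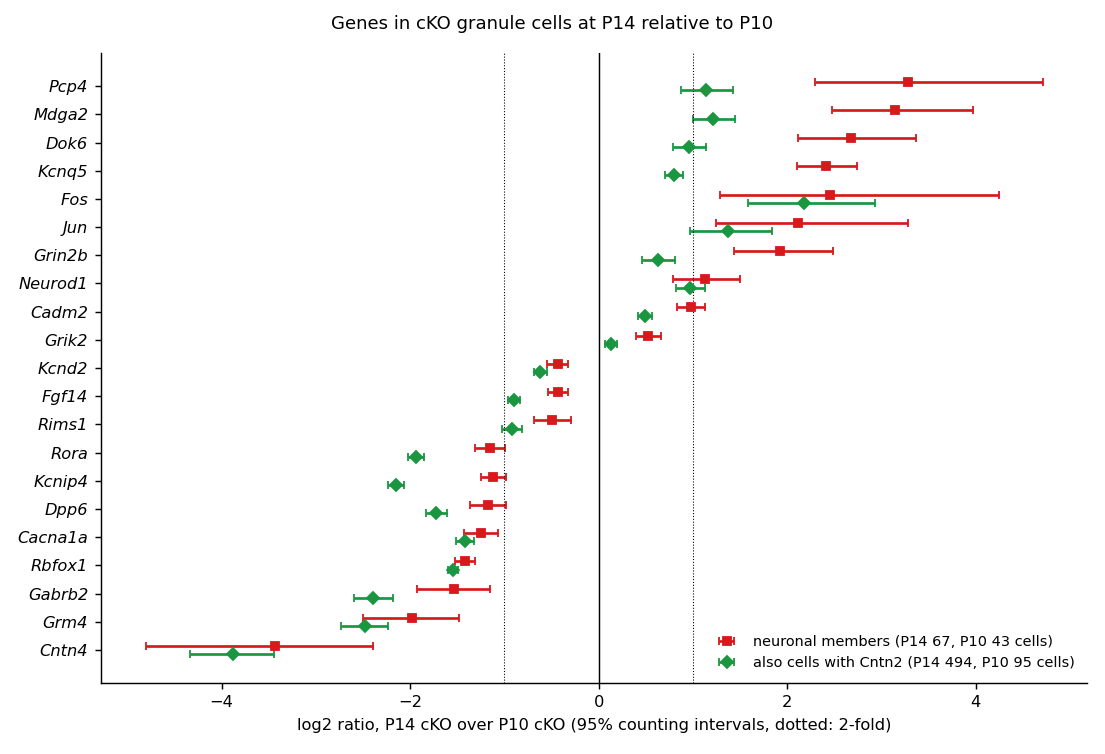
Log2 ratio of P14 cKO over P10 cKO for named genes in neuronal members and in Cntn2-inclusive cells, with 95% counting intervals. Kcnq5 and Grin2b lie above 0 and Grm4 and Kcnip4 below 0 in both sets.

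Immediate early genes, which are transcribed within minutes of stimulation and also during dissociation, were higher at P14 than at P10 in cKO. Their list stood at 1356 CPM in neuronal members of P14 cKO and 476 CPM in those of P10 cKO, with a median log2 ratio of 2.11 and 6 of 7 genes tested at least 2-fold higher, and the median was 1.37 with 13 of 17 higher in Cntn2-inclusive cells. Fos had 182 CPM at P14 and 30.5 CPM at P10 (log2 ratio 2.45, 1.28 to 4.25), and Jun had 276 CPM at P14 and 61.0 CPM at P10 (log2 ratio 2.12, 1.24 to 3.28). Between the genotypes at P14 the list had a median of 1.71 among all members but 0.53 among neuronal members, of which 1 of 8 was at least 2-fold higher, and 0.07 among Cntn2-inclusive cells. Among all members at P10 its median was -2.40.

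Cholesterol synthesis genes were higher at P14 than at P10 in cKO, with medians of 1.09 and 4 of 8 at least 2-fold higher among neuronal members, and 0.67 with 4 of 21 among Cntn2-inclusive cells. Between the genotypes at P14 the list had medians of -1.12 among all members, with 12 of 21 at least 2-fold lower, -0.15 among neuronal members and -0.22 among Cntn2-inclusive cells. Nuclear genes of oxidative phosphorylation had medians of -0.10, -0.45 and -0.04 between the genotypes at P14. Between the ages their median was 0.65 in neuronal members, with 9 of 28 at least 2-fold higher. Over all genes with under 10 kb of introns, neuronal members had medians of -0.49 between the genotypes at P14 and 0.50 between the ages. The part of intron length in the list medians was not tested.

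Ribosomal protein genes were lower in neuronal members of P14 cKO than in those of P14 WT. They made up 22540 CPM in neuronal members of P14 cKO and 47523 CPM in those of P14 WT, with a median log2 ratio of -1.06 and 44 of 77 genes at least 2-fold lower in cKO. Among all members the median was 0.22, with 1 of 79 higher, and among Cntn2-inclusive cells it was -0.17, with 35864 CPM in cKO and 39890 CPM in WT and 0 of 79 past 2-fold. At the limit of 0.25% the median among neuronal members was -0.77. In neuronal cells with 0 or 1 marker the list stood at 99090 CPM in cKO and 102601 CPM in WT, above all of these sets. The size of the difference thus changed with the choice of cells, and its cause was not tested.

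Core spliceosome genes, the list to which Eftud2 belongs, had small median differences between the genotypes at P14, of 0.24 among all members, -0.24 among neuronal members with 1 of 18 at least 2-fold lower, and -0.01 among Cntn2-inclusive cells with 0 of 25 past 2-fold. Neuronal splicing regulators had medians of 0.90, 0.01 and -0.07 in the same sets. Eftud2 itself had 16 UMIs in members of P10 cKO, 6 in P10 WT, 23 in P14 cKO and 23 in P14 WT, or 49.2, 32.5, 33.2 and 29.1 CPM. Its log2 ratio at P14 was 0.19 (-0.71 to 1.09) among all members, -0.58 (-1.83 to 0.83) among neuronal members and -0.02 (-0.57 to 0.64) among Cntn2-inclusive cells. A loss of Eftud2 in these granule neurons was not detectable at this depth, and where UMIs fall relative to any deleted exon is not known from these values. Xist had 0 UMIs in members of P10 cKO, against 240 in P10 WT, 675 in P14 cKO and 677 in P14 WT, and the labels give no sex.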

How the data were processed

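Whole cerebella were dissociated with trypsin and profiled on the 10x Genomics platform, 1 library per group, per the labels' protocols. The deposited matrices hold counts (UMIs per gene and barcode) and are not normalized. Per the submitters' processing notes the build was mm10 and the tools were Seurat 4.1.3 and Cell Ranger 3.0.2, while per the file headers Cell Ranger 7.0.1 wrote P10 cKO, 5.0.0 P10 WT and 7.1.0 both P14 libraries. The long-read data of the series were not analysed here.

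Cells with at least 500 genes and at most 20% mitochondrial UMIs were kept, and the rules on 18 genes were applied. Scrublet, run through Scanpy 1.11.5, gave doublet scores, and members above the 95th percentile of their library, 1, 1, 4 and 0 in P10 cKO, P10 WT, P14 cKO and P14 WT, stayed in except in an alternative. UMIs of members were summed per library, scaled to CPM and compared as log2 ratios after 0.5 UMI was added, for genes with at least 20 UMIs over both libraries. Intervals are 95% exact conditional binomial for ratios, and Clopper-Pearson for shares. Past 2-fold is no test. A planned edgeR fit of genotype and age was not run, because it required at least 20 members per library and P10 WT had 15. TMM factors came from edgeR 4.0.16 in R 4.3.3, and the rest was computed with pandas 2.3.3, SciPy 1.17.1 and NumPy 2.4.6 in Python 3.11.15, with figures from matplotlib 3.10.9. The ratios and intervals were tested on simulated data. Of 32285 gene IDs 32235 were matched to GENCODE vM21, and promoters came from RefSeq.

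Genes were named by rule. At P14 these were the 10 highest and 10 lowest by the bound of the interval nearest to 0, with the 5 highest and 5 lowest by age in cKO, the 4 members of each list with most UMIs, Eftud2, Xist and the genes of the gate. The rule was applied to all members and, after the data were seen, to neuronal members. Which of the genes it gave are described, and which were split by number of markers, was decided after their values were seen, and so were the Purkinje genes named for having 0 UMIs, which lie outside the rule. Gate, mitochondrial, ribosomal, haemoglobin and Y-linked genes, Xist, Tsix, Malat1 and models named Gm or Rik were left out of the ranked genes. Some genes the rule gave are not reported here. The members and lists were chosen with earlier results of these data known. The non-neuronal limit and the set without the Cntn2 exclusion were added after the data were seen.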

Additional observations from a re-analysis of the deposited data

Results flagged for a closer look

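The median log2 ratios of 2 lists between cKO and WT had opposite signs at the 2 ages among all members. Immediate early genes had a median of 1.71 at P14 and -2.40 at P10. Fibroblast markers had a median of 2.91 at P14 and -5.23 at P10. The difference between the ages was not tested, since each group was 1 library. Among neuronal members at P14 the immediate early genes had a median of 0.53, and P10 WT had 1 neuronal member, so no such value exists at P10.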

How the results depend on the processing

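No value here carries a test, and 1 library per group limits every comparison, so alternatives show only how the values move. The P14 ratio of member shares, cKO over WT, was 3.56. It was 13.7 after thinning to 3000 UMIs, 9.76 with at least 3 markers, 8.72 with a gate without Nebl and Grin2a, and 9.11 without members holding 3 markers of another class. It was 7.11 without non-neuronal members, 8.48 when their limit was 0.25%, 13.4 when those with fewer than 3 markers were also left out, 8.97 without the Cntn2 exclusion and 12.1 for the Cntn2-inclusive cells. The P10 ratio, between libraries written by different Cell Ranger versions, was 7.08. It was 45.5 with at least 3 markers, 47.7 without Nebl and Grin2a, 84.5 without members of another class, 93.1 without non-neuronal members, 91.0 at a limit of 0.25%, 43.3 with fewer than 3 markers also left out and 68.6 for Cntn2-inclusive cells. Among the smaller moves the P10 ratio was 5.12 with at least 1000 genes and the P14 ratio 3.40 without likely doublets, both below the ratios for all members.

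Counts of genes past 2-fold depended on the cells and on the minimum of UMIs. The P14 genotype count was 2765. It was 856 after thinning, 1422 with at least 3 markers, 978 without Nebl and Grin2a, 608 without members of another class, 1157 without non-neuronal members, 762 at a limit of 0.25%, 620 with fewer than 3 markers also left out and 1185 for Cntn2-inclusive cells. It was 1542 with at least 50 UMIs, 7991 with no minimum, and, for neuronal members, 1249 with marker numbers weighted alike and 1212 with TMM-scaled totals. The TMM factors of neuronal members, cKO over WT, differed by -0.20 on the log2 scale, which put every log2 ratio higher by that size and changed their split to 804 higher and 408 lower, against 543 higher and 614 lower. The P10 count of 2458 was 547 after thinning, 670 with at least 3 markers, 630 without Nebl and Grin2a, 1089 with at least 50 UMIs and 7046 with no minimum. The age count in cKO of 1670 was 1025 with at least 3 markers, 868 without Nebl and Grin2a, 935 without members of another class, 1045 without non-neuronal members, 1019 at a limit of 0.25%, 851 with fewer than 3 markers also left out and 2947 without the Cntn2 exclusion. It was 730 with at least 50 UMIs, 6005 with no minimum, and for neuronal members 1091 with marker numbers weighted alike and 1034 with TMM-scaled totals.

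The median of the mature list at P14, 2.24, was 0.55 after thinning, 1.23 without Nebl and Grin2a, 0.11 without members of another class, 0.95 without non-neuronal members, 0.24 at a limit of 0.25%, 1.02 without the Cntn2 exclusion, 0.15 for Cntn2-inclusive cells and 0.59 with marker numbers weighted alike. For neuronal members it was 0.52 with marker numbers weighted alike and 1.16 with TMM-scaled totals. It turned to -0.33 among neuronal members with at least 3 markers, of which P14 WT had 6. The same cells turned synaptic vesicle genes to -0.18, cholesterol synthesis to 2.70, Rbfox1 to -0.50 and Grm4 to -1.44. They also turned Fgf14 to -0.12, Kcnd2 to -0.16 and Kcnip4 to -0.20, genes whose counting intervals in cKO and WT overlapped there. Immediate early genes at P14 turned to -0.061 after thinning and -0.088 without members of another class, which also turned Celf2 to -0.10. Metabotropic glutamate receptors turned to -0.21 with marker numbers weighted alike, cholesterol synthesis to 0.053 with TMM-scaled neuronal totals, and the age median of NMDA receptor subunits to -0.36 and Rbfox1 at P14 to -0.0057 in Cntn2-inclusive cells. Grm4 at P14 also turned to -0.13 without Nebl and Grin2a, -0.79 without members of another class, -0.37 at a limit of 0.25%, -0.21 with marker numbers weighted alike and -0.066 so among neuronal members. Gabra2 by age turned to -0.29 without Nebl and Grin2a. The cause of these changes was not tested.

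The alternatives on the non-neuronal limit, the Cntn2 exclusion and the weighting and TMM scaling of neuronal members were chosen after seeing the data. The edgeR fit and its alternatives, which were DESeq2, no TMM factors, no filter, thinning, 3 markers, and gates without Calb2 or without Nebl and Grin2a, were not run, since P10 WT had 15 members. No paired analysis was possible because the labels give no replicate numbers and each group was 1 library.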
